A study of Homo sapiens with 6 samples.

Results

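The 8 genes described here are TXNIP, its relatives of the alpha-arrestin family, ARRDC1, ARRDC2, ARRDC3 and ARRDC4, and the genes of the Mondo transcription factors and their partner, MLXIP, MLXIPL and MLX. They were chosen by name, and all 8 were found among 20163 protein-coding genes of the annotation. Myc occupancy was measured by chromatin immunoprecipitation and sequencing (ChIP-seq) in MDA-MB-231, an established human triple-negative breast cancer cell line. Parental cells carry TXNIP, and TKO cells are a derivative in which TXNIP was knocked out with CRISPR/Cas9 and clones were isolated from single cells. Both lines had 2 Myc libraries, described by the study as biological replicates, and 1 input sample each, for which no peak list was used. The comparison asked whether Myc occupied these genes differently once TXNIP was lost. A Myc peak list does not measure the TXNIP product, so the knockout itself could not be checked here, and what separates the edited line from the loss of TXNIP cannot be told apart in 2 lines.

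Myc is a basic helix-loop-helix leucine zipper factor that binds DNA with MAX, most strongly at the E-box CACGTG. MondoA, encoded by MLXIP, and ChREBP, encoded by MLXIPL, belong to the same extended network. They bind with MLX, respond to glucose phosphates, and use a carbohydrate response element made of paired E-box-like parts. TXNIP is their best known target. Its protein holds back glucose uptake and thioredoxin, and Myc has been described at an element shared with MondoA just upstream of the TXNIP start. Alpha-arrestins are adaptors that bring HECT ubiquitin ligases of the NEDD4 family to membrane proteins.

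Promoters of 3 of the 4 genes that held one of the sequence motifs searched were read from GRCh37. TXNIP and ARRDC4 are shown because they lacked a Myc peak, and MLX because it had an E-box and a peak at its start. The E-box CACGTG was searched within 250 bases before and 50 bases after each transcription start site (TSS), and so were 2 copies of CACNNG separated by any 5 bases, the layout of the carbohydrate response element, on both strands. A copy of CACNNG can itself be an E-box, so the motifs may overlap. Each line gives the 250 bases before the first TSS, on the plus strand, and capitals mark the E-box or the copies of the pair. They cover chr1:145438240-145438489, chr15:98503683-98503932 and chr17:40718840-40719089.
TXNIP promoter: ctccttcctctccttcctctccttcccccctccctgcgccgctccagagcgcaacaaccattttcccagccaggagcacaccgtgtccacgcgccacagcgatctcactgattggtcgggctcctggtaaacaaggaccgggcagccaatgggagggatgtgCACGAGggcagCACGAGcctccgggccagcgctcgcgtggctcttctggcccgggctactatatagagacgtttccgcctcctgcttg
ARRDC4 promoter: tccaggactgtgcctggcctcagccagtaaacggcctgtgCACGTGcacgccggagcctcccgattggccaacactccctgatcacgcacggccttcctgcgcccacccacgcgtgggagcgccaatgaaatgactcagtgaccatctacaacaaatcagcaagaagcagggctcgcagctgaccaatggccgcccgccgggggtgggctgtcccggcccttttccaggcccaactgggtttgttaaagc
MLX promoter: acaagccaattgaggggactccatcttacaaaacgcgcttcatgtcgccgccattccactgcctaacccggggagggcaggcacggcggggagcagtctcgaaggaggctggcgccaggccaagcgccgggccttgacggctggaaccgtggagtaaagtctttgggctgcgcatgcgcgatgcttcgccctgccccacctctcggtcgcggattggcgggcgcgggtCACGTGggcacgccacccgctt
The TXNIP pair began 88 bases before the TSS, with CACGAG as both copies, and no E-box lay in the TXNIP window. The ARRDC4 E-box began 210 bases before its TSS. The MLX E-box began 22 bases before the first of its TSSs. MLXIPL held a pair, which began 131 bases before its most upstream TSS, and no E-box. No TSS window of ARRDC1, ARRDC2, ARRDC3 or MLXIP held either motif. Over all protein-coding genes, 12.6% had an E-box in such a window and 1.84% had a pair.

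The bases around TKO summits are shown for MLXIP and ARRDC1, 2 of the 3 genes with an E-box within 50 bases of a TKO summit, and for ARRDC2, the one start site among the 8 genes with a peak in parental cells. The MLXIP and ARRDC2 stretches span 50 bases on either side of the strongest summits of both TKO libraries. The ARRDC1 stretch surrounds the summit of TKO replicate 1, the weakest of the 3 ARRDC1 peaks by fold. All are read on the strand of the gene, and capitals again mark the E-box. They cover chr12:122516146-122516311, chr9:140502059-140502159 and chr19:18111847-18111965.
MLXIP summit: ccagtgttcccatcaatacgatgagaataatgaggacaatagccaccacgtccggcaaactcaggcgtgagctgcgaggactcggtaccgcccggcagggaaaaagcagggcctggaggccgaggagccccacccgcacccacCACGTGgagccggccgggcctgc
ARRDC1 summit: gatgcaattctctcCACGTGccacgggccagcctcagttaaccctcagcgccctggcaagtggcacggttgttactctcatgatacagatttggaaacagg
ARRDC2 summit: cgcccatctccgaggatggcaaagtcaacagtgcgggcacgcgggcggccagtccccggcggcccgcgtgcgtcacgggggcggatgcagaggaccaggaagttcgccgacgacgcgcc
The MLXIP and ARRDC1 stretches each hold an E-box and the ARRDC2 stretch holds none. A motif match in these letters is a description and does not show a binding site.

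The 4 deposited peak lists were of very unequal length. They held 3720 and 5719 peaks in parental replicates 1 and 2, and 27213 and 25887 peaks in TKO replicates 1 and 2, although the recovered depth was higher in parental cells, at 26.4 and 22.2 M reads against 19.9 and 13.0 M reads. Peaks were also wider in TKO, with a mean of 413 and 425 bp against 260 and 250 bp. The weakest summit in a list held between 0.451 and 0.537 RPM (summit reads divided by the depth in M reads) in all 4 libraries. A gene without a peak is therefore one without a site past the authors' threshold, and binding below it was not detectable. The part that list length played was addressed only by cutting the lists to the same number of peaks, as given beside the counts.

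A gene was called bound in a library when a peak summit lay within 5 kb of one of its TSSs. Of the 8 genes, 2 were bound in parental replicate 1, 0 in parental replicate 2, and 6 in each of the TKO replicates. Of all 20163 protein-coding genes, 13.9% and 15.5% were bound in parental replicates 1 and 2, and 54.5% and 55.4% in TKO replicates 1 and 2. The genes bound in both TKO libraries were ARRDC1, ARRDC2, ARRDC3, MLX, MLXIP and MLXIPL. TXNIP and ARRDC4 were bound in no library. The mean was 1 gene ± 1.41 (SD, n = 2) in parental cells against 6 in both TKO libraries, and the groups did not overlap. In an exact two-sided permutation test p was 0.333, which is the smallest p that 2 libraries against 2 allow, so no comparison of this kind could pass 0.05.

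The genes were also counted by the combination of libraries that bound them. Both TKO libraries bound 50.6% of all genes and 6 of the 8. Both TKO libraries and neither parental library bound 32.4% of all genes and 4 of the 8, namely ARRDC1, ARRDC3, MLXIP and MLXIPL. Both parental libraries bound 10.9% of all genes and 0 of the 8. No library bound 40.6% of all genes, a class that held TXNIP and ARRDC4. The gain of listed peaks in TKO at these genes went with a gain across the genome, and whether the 8 genes differ from other genes was not tested.

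When each list was cut to its 3720 strongest peaks by the authors' −log10 p-value, the difference between the lines became small. The bound genes then numbered 2 and 0 in the parental lists and 3 in each TKO list, against 13.9%, 10.9%, 15.1% and 15.3% of all genes. ARRDC2 stayed in parental replicate 1 and TKO replicate 1, MLX in these and in TKO replicate 2, MLXIP in both TKO libraries, and MLXIPL in TKO replicate 2. The MLX peaks that stayed were those at the start of its neighbour COASY, described below, and the peaks at the MLX start were lost. ARRDC1 and ARRDC3 had no peak left. So the MLXIP peak was among the strongest of both TKO lists. The ARRDC1 and ARRDC3 peaks, and those at the MLX start, were called only in the longer lists.

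**Figure D1:**
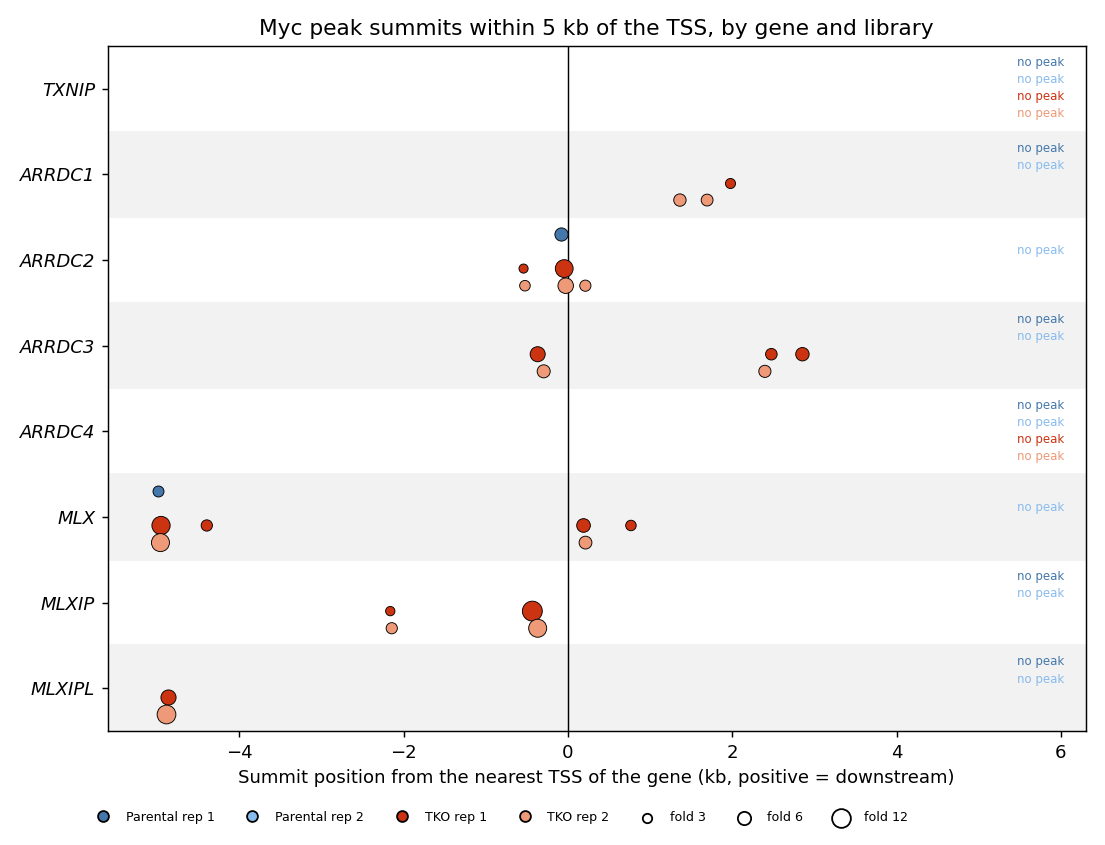
Position of each Myc peak summit from the nearest TSS of its gene (x axis, kb) for the 8 genes (rows) in the 4 libraries (colours), with circle area proportional to the authors' fold enrichment. TXNIP and ARRDC4 have no circle, and parental cells have 2, at the ARRDC2 start and 4990 bp upstream of MLX.

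Summed over the 8 genes, the lists held 2 peaks within 5 kb in parental replicate 1, 0 in parental replicate 2, 13 in TKO replicate 1 and 12 in TKO replicate 2. The mean was 1 ± 1.41 (SD, n = 2) in parental cells and 12.5 ± 0.707 (SD, n = 2) in TKO, with an exact permutation p of 0.333. Peaks overlapping by at least 1 bp were merged across libraries, which gave 13 sites. Of these, 8 were called in both TKO libraries only, 2 in both TKO libraries and parental replicate 1, and 3 in 1 library. No site of these genes was called in all 4 libraries, so summit reads could not be compared between the lines at a shared site. All sites of the series were counted at any distance from a TSS, so they are not matched to the 13 sites. Of them, 13485 were called in both TKO libraries only and 2495 in both TKO libraries and 1 parental library. A further 14167 were called in 1 library and 2631 in all 4. The rest were 31 sites in both parental libraries only and 627 in other combinations.

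TXNIP, the gene deleted in TKO, lies on chr1:145438490-145442635 on the plus strand, with 2 annotated TSSs. No summit lay within the gene or within 5 kb in any library. The nearest summit was 55.7 and 45.0 kb away in parental replicates 1 and 2 and 16.2 and 38.2 kb away in TKO replicates 1 and 2. Both TKO distances were shorter, but the nearest summits were at different places, and each lay nearer to the TSS of another gene. In parental replicate 1 it lay in an exon of the small nuclear RNA gene RNVU1-6, with a fold of 9.35, at a site called in all 4 libraries. In parental replicate 2 it lay in an intron of LIX1L, with a fold of 6.78. In TKO replicate 1 it was an intergenic summit with a fold of 4.77, called in that library alone. This summit lay 14900 bp from the TSS of POLR3GL, a gene of an RNA polymerase III subunit, and so almost as far from it as from TXNIP. In TKO replicate 2 it lay 435 bp from the TSS of LIX1L, with a fold of 5.47. The share of protein-coding genes with their nearest summit at least as far away was 67.6% and 65.4% in the parental lists and 36.6% and 27.0% in the TKO lists. Peaks were not rare around TXNIP, since 1 and 2 parental peaks and 12 and 7 TKO peaks lay within 100 kb of the gene, and no gap of the assembly lay there. How much sequence the edit removed at TXNIP in TKO cells is not given in the sources used here, and this was not tested. Where sequence was removed, no TKO peak could be listed. The carbohydrate response element layout printed above was thus present in the reference promoter while no Myc peak was listed there. Of the 370 genes with such a pair, 113 (30.5%) were bound in no library and 62.4% were bound in both TKO libraries.

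ARRDC4, the closest relative of TXNIP and like it a glucose-responsive gene, lies on chr15:98503933-98517063 on the plus strand. No library had a peak within 100 kb of it. The nearest summits were 1686814 and 913339 bp away in the parental libraries and 587706 and 607465 bp away in the TKO libraries. The parental ones lay in introns of NR2F2-AS1 and IGF1R, and the TKO ones were intergenic. Only 4.97%, 7.76%, 2.91% and 2.99% of genes, in parental replicates 1 and 2 and TKO replicates 1 and 2, had their nearest summit as far away or farther. Its E-box is one of those in 2532 genes, of which 692 (27.3%) were bound in no library. TXNIP and ARRDC4 were alike in lacking a peak and differed in their surroundings, which held several peaks around TXNIP and none around ARRDC4.

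**Figure D2:**
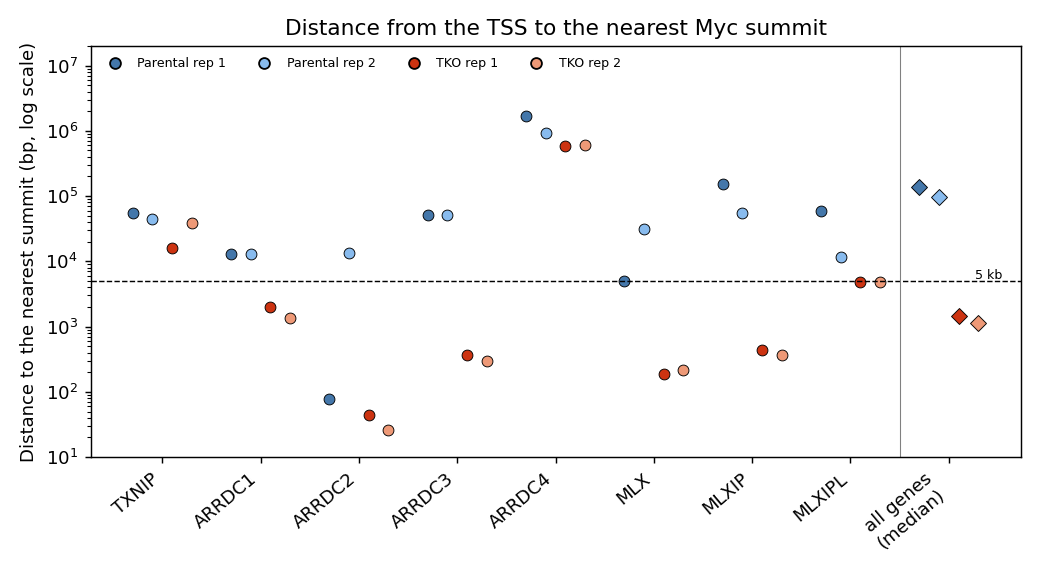
Distance from the nearest TSS to the nearest Myc summit (y axis, bp, log scale) for the 8 genes in each library, with the median over all protein-coding genes as diamonds and 5 kb as a dashed line. The TKO points lie below the parental points for all 8 genes, and the same is seen in the medians over all genes. The share of all genes with this order was not counted. ARRDC4 is the farthest of the 8 from a summit in every library.

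ARRDC2 was the only gene of the 8 with a peak at its own start in parental cells. This alpha-arrestin gene lies on chr19:18111941-18124911 on the plus strand, with 3 TSSs. At the first TSS, parental replicate 1 had a summit 79 bp upstream with a fold of 5.94, where fold is the number of scaled summit reads plus 1 over the local background plus 1. The scale was 0.8375 in parental replicate 1, 0.9975 in parental replicate 2 and 1 in both TKO libraries. TKO replicates 1 and 2 had summits 44 and 26 bp upstream with folds of 10.82 and 8.18. Parental replicate 2 had no peak there, and its nearest summit was 13.5 kb away. The summit held 21 reads in parental replicate 1, against 37 and 22 in the shallower TKO libraries, or 0.795, 1.85 and 1.69 RPM. Reads were extended further in TKO, to 182 and 201 bp against 140 bp in this parental library, and per 100 bp of extension the values were 0.568, 1.02 and 0.84 RPM. By fold these peaks stood at the 59.6th percentile of the list of parental replicate 1 and at the 92.0th and 81.8th percentiles of the TKO lists. A second site, in an intron and 522 to 539 bp upstream of an internal TSS, was weak in both TKO libraries, with folds of 2.84 and 3.82. A further summit, 213 bp downstream of an internal TSS, was called in TKO replicate 2 only, with a fold of 4.28.

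ARRDC1, whose product drives the budding of vesicles from the cell surface, lies on chr9:140500138-140509812 on the plus strand. Its TKO peaks lay inside the gene, in an intron, and at different positions in the replicates. TKO replicate 1 had a summit 1971 bp downstream of the TSS with a fold of 3.46, at the 7.54th percentile of its list. TKO replicate 2 had summits 1364 and 1695 bp downstream, with folds of 5.22 and 4.79. These peaks overlapped into 1 site, and the one of TKO replicate 1 was lost when only peaks with a fold of at least 5 or a −log10 q-value of at least 5 were kept. In both parental libraries the nearest summit was 13.0 kb away, 278 and 285 bp from the TSS of EHMT1, a histone methyltransferase gene, at a site called in all 4 libraries. The E-box at the summit of TKO replicate 1, printed above, was not within 50 bases of either summit of TKO replicate 2.

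ARRDC3, an adaptor in the ubiquitination of membrane receptors and integrins, lies on chr5:90664448-90679134 on the minus strand. Both TKO libraries had a summit just upstream of its TSS, 367 bp away with a fold of 7.72 in replicate 1 and 294 bp away with a fold of 5.79 in replicate 2. This site lies in an intron of the antisense transcript ARRDC3-AS1, so a peak of ARRDC3 and one of its antisense partner cannot be told apart. Both TKO libraries also had a summit inside the gene, 2477 and 2398 bp downstream, with folds of 4.57 and 5.04. TKO replicate 1 alone had a further one at 2855 bp, with a fold of 6.15. These inner summits lie in exon sequence of ARRDC3-AS1, so the same limit holds for them. In both parental libraries the nearest summit was 50.9 kb away. No E-box lay within 50 bases of any of these summits.

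Among the Mondo genes, MLXIP had the peak of highest fold of the 8 genes in TKO replicate 1. MLXIP lies on chr12:122516628-122631894 on the plus strand, with 4 TSSs. The summit was 432 bp upstream of the first TSS in TKO replicate 1 and 367 bp upstream in TKO replicate 2, with folds of 13.50 and 11.06 and 2.31 and 2.30 RPM. These stood at the 95.8th and 92.5th percentiles of their lists. Parental cells had no peak near, and their nearest summits were 154 and 55.2 kb away, in CFAP251 and BCL7A. The E-box of the printed stretch lay within 50 bases of the summit of TKO replicate 2 and inside the peak of replicate 1. A second site, 2161 and 2143 bp upstream of an internal TSS, was weak, with folds of 2.98 and 4.30. Within 100 kb of the gene, 50000 bases were a gap in the assembly, where no peak can be listed.

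MLXIPL lies on chr7:73007524-73038870 on the minus strand, with 4 TSSs. Its only site within 5 kb was near the edge of that window, 4868 bp upstream in TKO replicate 1 and 4888 bp upstream in TKO replicate 2. The folds were 7.81 and 11.97, at the 80.0th and 94.2nd percentiles, and the summits held 1.2 and 2.30 RPM. The site is intergenic. It was not counted with a window of 1 kb. The nearest parental summits were 59.1 kb away, 7 bp from the TSS of BUD23, and 11.6 kb away, in an intron of MLXIPL itself. The pair of CACNNG at its promoter had no summit within 1 kb in any library.

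MLX, the partner that both Mondo proteins need to bind DNA, lies on chr17:40719090-40725257 on the plus strand, with 2 TSSs. Its peaks fell into a start site and a site of its neighbour. At the MLX start, TKO replicates 1 and 2 had summits 191 and 215 bp downstream, in a coding exon, with folds of 6.36 and 5.59 and 1.55 and 1.53 RPM. Parental cells had no peak there. About 5 kb upstream, summits at −4990 bp in parental replicate 1, −4951 bp in TKO replicate 1 and −4958 bp in TKO replicate 2 lay 65, 26 and 33 bp from the TSS of COASY, the coenzyme A synthase gene. Their folds were 4.10, 11.32 and 11.05, and they held 1.44, 2.81 and 3.45 RPM, or 1.03, 1.54 and 1.72 RPM per 100 bp of extension. The parental call of MLX thus came from the start of COASY, and with a window of 1 kb MLX had 0 peaks in both parental libraries and 2 and 1 in TKO. In TKO replicate 1 the COASY site held a second summit with a fold of 4.34, and a further MLX summit lay 768 bp downstream with a fold of 3.76. Neither had a counterpart summit in TKO replicate 2. The MLX E-box printed above lay inside the start peak of TKO replicate 2 and not in that of replicate 1.

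**Figure D3:**
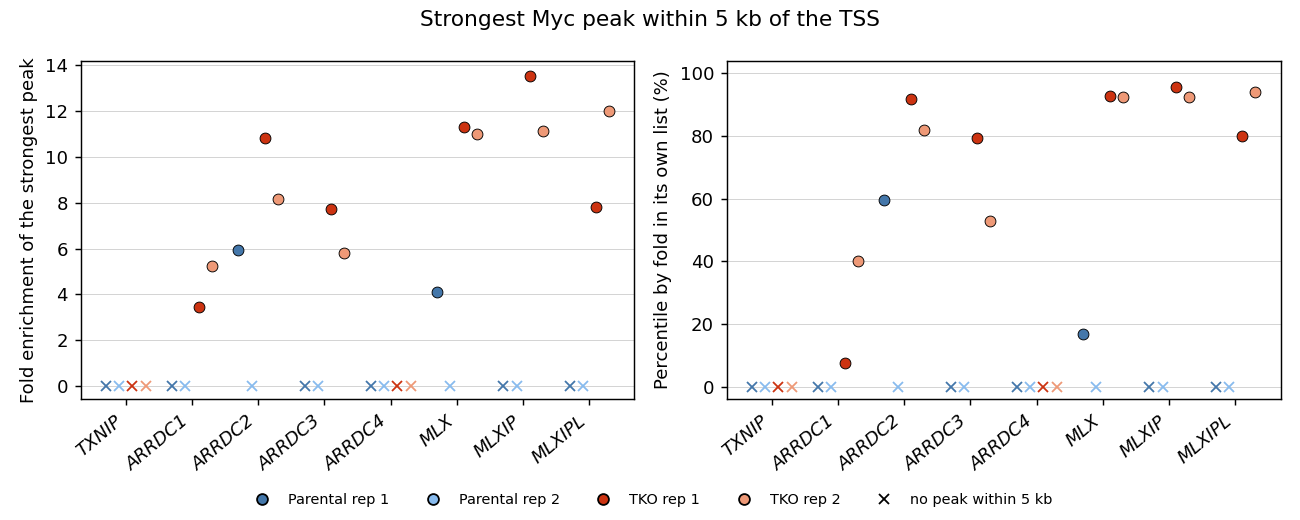
Fold enrichment (left) and percentile by fold within its own list (right) of the strongest Myc peak within 5 kb of each of the 8 genes in each library, with crosses at 0 for libraries without a peak. MLX, for which this is the COASY site, and MLXIP reach folds above 11 in both TKO libraries, and ARRDC1 is the lowest of the bound genes in both.

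Among the genes that had a peak, the median percentile of the strongest peak was 86.0 in TKO replicate 1 and 87.1 in TKO replicate 2, each over 6 genes. Over all protein-coding genes with a peak in these libraries the medians were 71.8 and 71.1. In parental replicate 1 the median was 38.3 over 2 of the genes and 56.7 over all genes. For MLX the strongest peak was the COASY site, at the 92.9th and 92.5th percentiles in TKO replicates 1 and 2. Its start peak stood at the 66.0th and 49.1st percentiles there. With the start peak in its place both TKO medians of these genes would be lower, in replicate 2 below that of all genes. The medians are descriptions, since a percentile within a list depends on its length and the genes without a peak are left out. An E-box lay within 50 bases of the summit for 2 of 13 and 2 of 12 peaks of these genes in TKO replicates 1 and 2, and for 0 of 2 in parental replicate 1. Over all peaks this share was 22.6% and 16.9% in parental replicates 1 and 2 and 8.82% and 7.58% in TKO. All peaks include those far from any TSS, so they are not matched to the peaks of these genes. No CACNNG pair lay within 50 bases of a summit of these genes, although 1 lay elsewhere in the MLX start peak of both TKO libraries.

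The median distance from the 8 genes to the nearest summit was 53.3 and 38.0 kb in the parental libraries and 1.2 and 0.866 kb in the TKO libraries. Over all protein-coding genes it was 139 and 98.2 kb in the former and 1.46 and 1.12 kb in the latter. For each of the 8 genes both TKO distances were below both parental ones, with an exact permutation p of 0.333. The TKO lists are far longer, and the share of all genes with this order was not counted, so it is not a trait shown for these genes. With lists of equal length the medians of the 8 genes were 53.3 and 45.9 kb against 34.3 and 40.7 kb, so most of the difference in distance was lost.

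Lists of genes that work with these 8 were counted in the same way, against the shares of all genes given above. The folds given for them are those of the strongest peak within 5 kb. They are not adjusted for the longer extension of reads in TKO or for the scales, so they do not measure a difference in occupancy. MAX, MXD1, MXI1, MXD3, MXD4, MNT and MGA were listed as partners of MLX or MAX, with MAX itself included. Of these 7 genes, 5 and 6 were bound in parental replicates 1 and 2 and all 7 in each TKO library. MAX, the obligate partner of Myc, had folds of 8.62 and 8.48 in the parental libraries and 13.5 and 14.8 in the TKO libraries. MXD1, whose product binds with MAX and represses, had folds of 6.89 and 7.09 against 28.8 and 27.8. Most of this list thus had a peak in parental cells, where 13.9% and 15.5% of all genes had one. By the same 5 kb rule MLX was bound in parental replicate 1, through the COASY site, and MLXIP and MLXIPL in neither parental library.

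Of 10 genes described as Mondo or ChREBP targets, 4 and 3 were bound in parental cells and 9 in each TKO library. PFKFB3, which stimulates glycolysis, was bound in all 4 libraries, with folds of 10.2 and 8.33 in parental replicates and 13.1 and 11.6 in TKO replicates. FASN, the fatty acid synthase gene, had a fold of 6.54 in parental replicate 1, no peak in parental replicate 2, and folds of 12.9 and 8.44 in TKO. SLC2A1, the gene of the main basal glucose transporter, had no peak in parental replicate 1, a fold of 5.06 in parental replicate 2, and folds of 5.84 and 7.85 in TKO. TXNIP and ARRDC4, which are targets of the same factors, had no peak in any library. The only one of the 10 without a peak was G6PC1, a gluconeogenic gene, named here after its values were seen.

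Of 8 partners and regulators of the TXNIP protein, 2 and 3 were bound in the parental libraries and 6 and 7 in the TKO libraries. TXN, the thioredoxin gene, was bound in all 4 libraries, with folds of 7.79 and 5.24 against 10.4 and 11.3. SLC2A4, an insulin-responsive glucose transporter gene, had folds of 4.69 and 5.59 against 11.9 and 9.17. TXN2, the gene of mitochondrial thioredoxin, named here after its values were seen, had no peak in parental cells and folds of 4.75 and 6.97 in TKO.

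Of 9 HECT ligases of the NEDD4 family, which alpha-arrestins recruit, 0 were bound in either parental library and 6 in each TKO library. WWP2 had folds of 7.46 and 7.79 in TKO, and its nearest parental summits were 7456 and 7532 bp away. ITCH had folds of 6.95 and 7.07 in TKO. Of 8 other genes of the arrestin fold, 2 in each parental library and 5 in each TKO library were bound. VPS26B, a retromer subunit gene, had folds of 6.90 and 5.15 against 8.47 and 9.92. VPS26C, a subunit gene of the related retriever complex, had folds of 4.46 and 3.1 against 12.5 and 12.5.

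**Figure D4:**
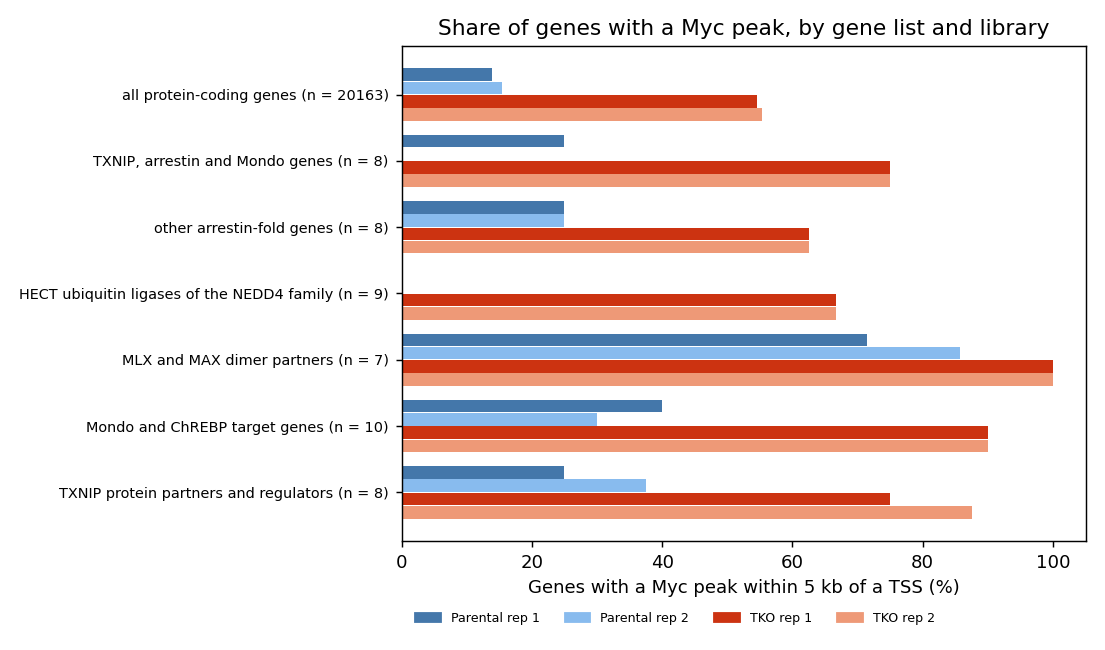
Percentage of genes with a Myc peak within 5 kb of a TSS (x axis) for all protein-coding genes, the 8 genes and 5 related gene lists, with 1 bar per library and no bar where the count is 0. The MLX and MAX partners have the longest bars in both lines, and the 8 genes and the NEDD4 ligases have no bar in parental replicate 2.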

How the data were processed

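The authors aligned single reads to hg19 with Novoalign (version 3.08.02) and called peaks in each Myc library with MACS2 (version 2.1.1.20160309) against input. How duplicate reads were treated is not given in the sources used here. The deposited peak lists give, per peak, the fold (summit reads over local background), the −log10 p-value, the −log10 q-value, a score and the summit; all were computed by the authors. The lowest −log10 q-value in a list was 2.03 to 2.07. The deposited score was not used.

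Whole summit reads, and the scale applied to a library deeper than its input, were recovered from fold and p, with a tolerance of 0.002 in −log10 p, for 100% of peaks. Depth was estimated from the background, the narrowest peak and an assumed genome of 2700000000 bases; RPM values rest on it, and counts are of reads, not of molecules. TSSs were those of basic GENCODE v44lift37 transcripts on GRCh37, the sequence of hg19. Distances, merged sites, percentiles and motifs were computed with Python 3.11.15, pandas 2.3.3, numpy 2.4.6 and pysam 0.24.0, and recovery and motif search were tested on simulated data. Libraries were compared with a two-sided exact permutation test over 6 splits. The 2 input samples had no peak list and were not analysed here, and the sequence around the MLXIPL summits is not reported here.

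The 8 genes, the 5 gene lists and the tests were chosen with earlier results of these data known. Every one of the 8 genes is named. Of each list, the 2 genes with the highest mean percentile by fold over the libraries are named, with 0 for a library without a peak, and SLC2A1 and TXN whatever their values. Alternatives were a TSS window of 1 or 10 kb, a −log10 q-value or fold of at least 5, equally long lists, protein-coding transcripts only, overlap in place of summit, each library left out, and a replicate block.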

Additional observations from a re-analysis of the deposited data

How the results depend on the processing

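TKO had more bound genes, more peaks and shorter distances under every alternative run. The difference in bound genes between the mean of TKO and the mean of parental libraries was 5 as reported and 2 with equally long lists. The difference in peaks was 11.5 as reported, 5.5 with a window of 1 kb, 7 with a fold of at least 5, and 2 with equally long lists. The ratio of the parental to the TKO median distance was 44.1 as reported, 28.2 with a −log10 q-value of at least 5 and 1.32 with equally long lists. That list length changes these values follows from how the equal lists are built, since they keep fewer TKO peaks. Leaving out each library in turn gave differences of 4 to 6 bound genes and of 10.5 to 12.5 peaks, and ratios of 36.8 to 52.7. With a replicate block, pairing libraries of the same number, the differences were 5 and 11.5, as without it. The libraries share only a number, and the pairing was not otherwise tested. No alternative for summit reads at sites called in all 4 libraries was run, since the 8 genes have none. With 2 libraries in each line no p could pass 0.05, and a missing peak does not show missing binding.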

Other observations

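Peaks within the gene bodies of the 8 genes were also counted, at any distance from the TSS. TXNIP and ARRDC4 had none in any library. MLXIPL had 0 and 1 in the parental libraries, 3 in TKO replicate 1 and 4 in TKO replicate 2, and its intronic summit in parental replicate 2, with a fold of 4.66, was the only parental peak in the body of any of the 8 genes. ARRDC1 had 4 and 3 in TKO, and MLXIP, by far the longest of the genes at 115267 bp, had 2 in each TKO library. In TKO replicates 1 and 2, ARRDC2 had 1 and 2, ARRDC3 had 2 and 1, and MLX had 2 and 1. The same count over all genes was not made.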
